A study of Mus musculus with 4 samples.

Results

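The genes of sterol and fatty acid synthesis were followed through 4 RNA-seq libraries of MMTV-Myc cells, a mouse mammary tumour line named for its Myc transgene, which the MMTV promoter (active mainly in mammary epithelium) controls. The group holds 36 genes chosen by their function in the pathway and not by their values: the regulators of the sterol response, the enzymes of cholesterol synthesis in their order of action, a sterol carrier, and the enzymes that build, desaturate and elongate fatty acids. All 36 were found among the 22440 rows of the bulk and mammosphere table, and 35 among the 11708 rows of the knockdown table, where the condensing enzyme Hmgcs1 had no row.

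Each group was 1 library, labelled MMTV-Myc and, apart from the hairpins, wild type. Bulk cells (day 0) were kept in DMEM/F12 with 2% FBS and 10 μg/ml insulin. Mammosphere cells (day 20) grew on low attachment plates in DMEM/F12 or MEBM with 20 ng/ml EGF, 20 ng/ml bFGF and the Gem21 supplement, with passage every 4 days. The other pair carried a lentiviral pLKO.1 hairpin, either a control (named shLuc in one label and shScr in another) or a single hairpin against the Polycomb subunit Cbx8 (sh68), under 2 μg/ml puromycin. Whether the hairpin cells grew attached or as spheres was not given in the sources used here. Growth form, medium and days in culture differed together between the first pair, so their parts cannot be told apart. With 1 library a group there was no test across replicates: every difference below is between 2 libraries and has no estimate of spread.

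Cells make cholesterol from acetyl-CoA through mevalonate, isoprenoid diphosphates and squalene. Transcription of most of these enzymes, and of the enzymes of fatty acid synthesis, is controlled by the SREBP factors, which the escort protein SCAP carries from the endoplasmic reticulum to the Golgi when membrane sterols are low and which INSIG proteins hold back when sterols are high. In mammary epithelium the SREBP pathway is best known for the lipid synthesis of lactation, and tumour cells use it to build membranes.

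SREBPs bind sterol regulatory elements in promoters, often beside CCAAT boxes bound by NF-Y, and SREBP-1 can also bind the E-box that Myc and Max recognise. RefSeq promoters (GRCm38.p6, from 250 bases before to 50 bases after a gene's start) were matched for 29 of the 36 genes, with Sc4mol under its present symbol Msmo1. The sterol regulatory element TCACNCCAC, searched on both strands, was in 1 of these 29 genes (3.45%), against 1.44% of all 27025 genes with a promoter. The looser CACNCCAC, which every match of the first also holds, was in 3 of 29 (10.3% against 7.12%). The CCAAT box, searched as CCAAT, was in 24 of 29 (82.8%) against 41.1% of all genes and 43.3% of the 9213 genes at 1 FPKM or more in the bulk or mammosphere library. The E-box CACGTG was in 6 of 29 (20.7%), against 8.09% of all genes and 11.8% of those 9213. A match describes letters and shows no binding. Of the 18 genes at least 2-fold higher in mammospheres, 12 had a promoter, and 10 of these held a CCAAT box. Fdps, Fdft1, Stard4, Scd1, Scd2 and Fads1 had no promoter matched. Of the 17 other genes with a promoter, 14 held a CCAAT box.

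The 250 bases before the start are printed for 4 genes that show these letters: Hmgcs1, the 1 gene with the full sterol element; Insig1 and Acat2, the other genes with the looser element; and Mvk, with the most CCAAT boxes. They run 5′ to 3′ on the gene's strand, with capitals for every match of the 4 motifs on either strand (CCAAT on the other strand reads ATTGG). The windows are chr13:119690101-119690350 (plus strand) for Hmgcs1, chr5:28071162-28071411 (plus strand) for Insig1, chr17:12960726-12960975 (minus strand) for Acat2 and chr5:114444019-114444268 (plus strand) for Mvk, all in GRCm38.
Hmgcs1: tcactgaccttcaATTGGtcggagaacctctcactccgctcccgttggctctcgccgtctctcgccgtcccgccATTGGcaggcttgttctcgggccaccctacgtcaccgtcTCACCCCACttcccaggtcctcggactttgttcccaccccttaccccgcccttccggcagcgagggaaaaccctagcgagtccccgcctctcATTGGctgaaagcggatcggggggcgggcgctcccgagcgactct
Insig1: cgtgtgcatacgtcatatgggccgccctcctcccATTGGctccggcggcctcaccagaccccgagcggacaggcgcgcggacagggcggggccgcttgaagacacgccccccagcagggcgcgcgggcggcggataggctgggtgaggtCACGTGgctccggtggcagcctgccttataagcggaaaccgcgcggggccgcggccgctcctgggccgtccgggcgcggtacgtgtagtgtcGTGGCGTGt
Acat2: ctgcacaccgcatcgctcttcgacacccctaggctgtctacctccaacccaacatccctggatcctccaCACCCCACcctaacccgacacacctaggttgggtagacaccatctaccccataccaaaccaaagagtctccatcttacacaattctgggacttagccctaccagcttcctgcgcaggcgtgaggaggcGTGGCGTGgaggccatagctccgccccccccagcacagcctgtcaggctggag
Mvk: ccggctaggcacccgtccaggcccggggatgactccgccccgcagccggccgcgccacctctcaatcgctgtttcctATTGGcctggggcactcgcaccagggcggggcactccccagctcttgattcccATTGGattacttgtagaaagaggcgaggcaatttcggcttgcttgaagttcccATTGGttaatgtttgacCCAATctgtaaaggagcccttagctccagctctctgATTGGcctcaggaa
The sterol element of Hmgcs1 began 137 bases before its start, with CCAAT boxes beginning 237, 176 and 45 bases before it. Insig1 held a CCAAT box at 216, an E-box at 101 and the looser sterol element at 9 bases before the start. Acat2 held 2 copies of the looser element, at 181 and 53 bases, and no CCAAT box. The 5 CCAAT boxes of Mvk began at 173, 120, 67, 50 and 14 bases.

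The mammosphere library had higher transcripts of most enzymes of cholesterol synthesis and of fatty acid desaturation than the bulk library. The SREBP factors and their escort stayed within 2-fold. Levels are given in FPKM, which scales fragments to transcript length and library size, so that levels of different genes can be set side by side. Differences are log2 ratios with 1 FPKM added to each value, so that differences of low genes come out too small, and 2-fold is counted on that scale. All 36 genes were at 1 FPKM or more in at least one of the pair, and 32 were tested by the authors. Of the 36, 18 were at least 2-fold higher in mammospheres, against 3.54% of all 11603 rows at that level, and 0 were 2-fold lower, against 17.3%. The median difference was 1.03 on the log2 scale, against −0.24 over all these rows, and 32 of the 36 differences were positive (88.9%, against 34.7%). In the authors' deposited table, q was under 0.05 for 13 of the 32 tested genes with a higher level in mammospheres and for 0 with a lower one, against 1.73% and 10.2% of tested rows; these q-values, too, rest on 1 library a group. By fold, 16 of these 32 were 2-fold higher and 0 lower, against 3.73% and 16.2% of tested rows. At a limit of 1.5-fold on the same scale, 26 of the 36 were higher and 0 lower, against 9.86% and 30.7% of all rows. As plain ratios, without 1 FPKM added, Scap (1.51-fold lower) and Ebp (1.52-fold lower) were just past that limit.

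**Figure D1:**
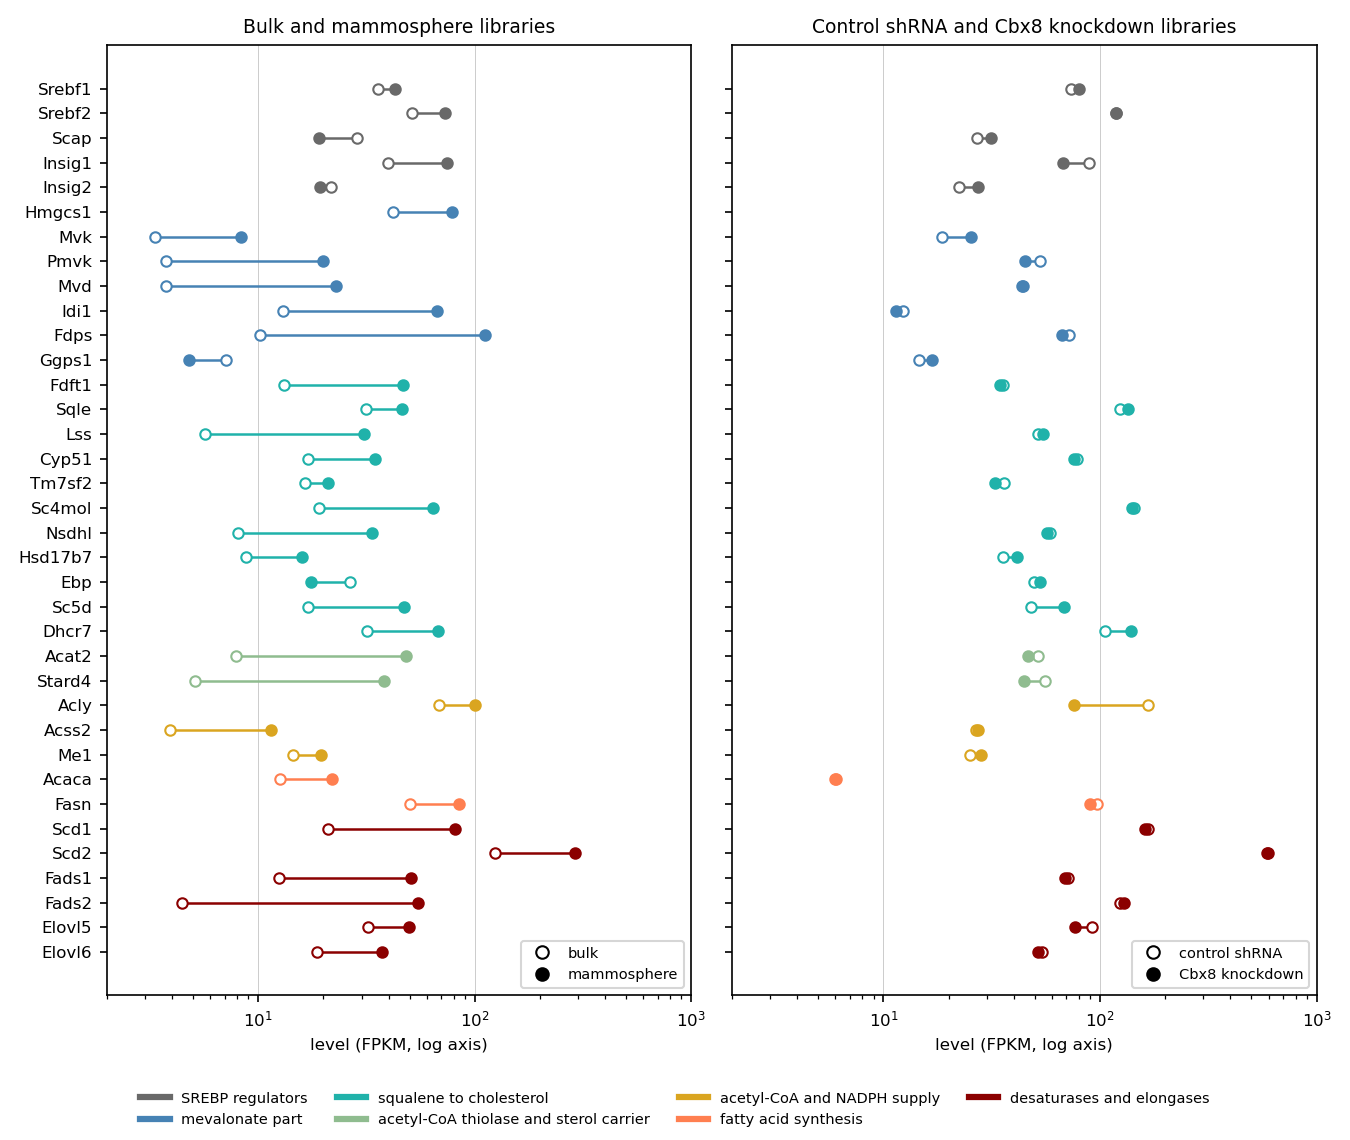
Level of each gene in FPKM (log axis) in the bulk (open) and mammosphere (filled) libraries, left, and the control shRNA (open) and Cbx8 knockdown (filled) libraries, right; each point is 1 library and colours mark the role. On the left 32 of 36 filled points lie to the right of the open ones, against 34.7% of all rows. On the right 28 of the 35 pairs lie within 1.2-fold of each other, against 71.9% of all rows, and Acly is farthest apart.

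Scaling changed the number past 2-fold, and the sign of 1 gene, Insig2. Rows at 1 FPKM or more in both libraries had a median log2 difference of −0.19. Centred on it, 22 of the 36 were at least 2-fold higher, against 653 of all 11603 rows. Setting upper quartiles equal multiplies mammosphere levels by 1.246 (0.32 on the log2 scale before 1 FPKM is added). With this, 25 of the 36 were at least 2-fold higher, against 821 of the 11603 rows. Under both scalings 0 of the 36 were 2-fold lower, against 1548 rows when centred and 1563 with equal upper quartiles. Among all rows past 2-fold either way, the higher ones made up 17.0% as deposited, 29.7% centred and 34.4% with equal upper quartiles.

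The 5 regulators stand above the pathway. Their median difference was the smallest of the roles, but it combines both signs, from −0.57 (Scap) to 0.89 (Insig1). Srebf2, the factor mainly of cholesterol genes, was at 51.5 FPKM in the bulk library and 72.6 in mammospheres. Srebf1, mainly of fatty acid genes, was at 35.8 and 42.8 FPKM. The escort Scap was at 28.7 and 19.0 FPKM, a log2 difference of −0.57. None of the 5 reached 2-fold in the deposited values, against 3.54% of all rows higher and 17.3% lower. Their median difference was 0.25. The retention protein Insig1, itself a known SREBP target, was at 39.6 FPKM in the bulk library and 74.4 in mammospheres, whereas its relative Insig2 was at 21.7 and 19.3. Insig1 was thus 1.83 times the level of Insig2 in bulk and 3.85 times in mammospheres. With other scalings Insig1 passed 2-fold (1.08 after centring) and the difference of Insig2 turned from −0.16 to 0.03, while that of Scap stayed negative.

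In the mevalonate part 5 of 7 genes were at least 2-fold higher (71.4%, against 3.54% of all rows). Their median difference was 2.13, against −0.24 over all rows. Fdps (mm9 chr3:88897509-88905867), which makes farnesyl diphosphate, was at 10.2 FPKM in the bulk library and 111 in mammospheres, 10.9-fold higher (log2 difference 3.32), and went from the 62.8th to the 97.1st percentile of expressed rows. Mvd, the decarboxylase that makes isopentenyl diphosphate, was at 3.77 and 22.8 FPKM, 6.05-fold higher. The phosphomevalonate kinase Pmvk was at 3.76 and 19.9 FPKM and the isomerase Idi1 at 13.0 and 66.8. In the authors' deposited table the q-values were 2.18e-06 for Fdps, 0.00225 for Mvd, 0.00438 for Pmvk and 0.00102 for Idi1. The mevalonate kinase Mvk was at 3.32 and 8.35 FPKM, in a row the authors did not test.

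Both ends of this part differed less. Hmgcs1, which makes the HMG-CoA that enters it, was at 41.9 FPKM in the bulk library and 78.4 in mammospheres (0.89). The table lists Hmgcs1 in 2 rows with the same values, both on unplaced sequence of chromosome 13, and how reads were shared between them was not given in the sources used here. Ggps1, which extends farnesyl to geranylgeranyl diphosphate for protein prenylation and leads away from sterols, was at 7.10 and 4.77 FPKM (−0.49, negative under both other scalings, and untested by the authors). Fdps was 1.44 times the level of Ggps1 in bulk and 23.3 times in mammospheres.

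Of the 11 enzymes from squalene to cholesterol, 6 were at least 2-fold higher (54.5%, against 3.54% of all rows). Differences were positive for 10 of them (90.9%, against 34.7%), and the median was 1.06. The squalene synthase Fdft1, the first enzyme committed to sterols, was at 13.1 FPKM in the bulk library and 46.7 in mammospheres. Lss, which closes the sterol rings, was at 5.66 and 30.8 FPKM, 5.44-fold higher. The demethylation enzymes Sc4mol and Nsdhl were at 19.1 and 64.0 FPKM and at 8.04 and 33.6 FPKM. The authors' deposited table gave these 4 q-values under 0.05, from 0.00107 for Lss to 0.0338 for Sc4mol.

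The late desaturase Sc5d was at 16.9 and 47.0 FPKM (q = 0.0930 in the authors' deposited table) and the last reductase Dhcr7 at 31.9 and 67.6 (q = 0.249). Cyp51, the lanosterol demethylase, lay just inside the 2-fold limit at 16.9 and 34.7 FPKM (0.99). Sqle, the epoxidase often named as a second slow step of the pathway, was among the highest sterol enzymes in bulk cells at 31.3 FPKM and was at 45.9 in mammospheres (0.54). Hsd17b7, a keto reductase, was at 8.75 and 15.9 FPKM. The reductase Tm7sf2, in a row shared with 1110014N23Rik and therefore uncertain, was at 16.5 and 21.0 FPKM. The isomerase Ebp differed in sign from its neighbours, at 26.6 FPKM in the bulk library and 17.5 in mammospheres (−0.57, and −0.27 with equal upper quartiles). The steps around Ebp thus differed from it in sign: Nsdhl and Hsd17b7 before it and Sc5d after it were higher in mammospheres. Hsd17b7 was not tested by the authors.

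The largest sterol differences after Fdps were in Stard4 and Acat2. Stard4, a cytosolic carrier of cholesterol, was at 5.09 FPKM in the bulk library and 37.9 in mammospheres, 7.45-fold higher (q = 0.000322 in the authors' deposited table). Acat2, the cytosolic thiolase that joins acetyl-CoA units at the start of the pathway, was at 7.93 and 48.2 FPKM, 6.08-fold higher (q = 0.000493 there).

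**Figure D2:**
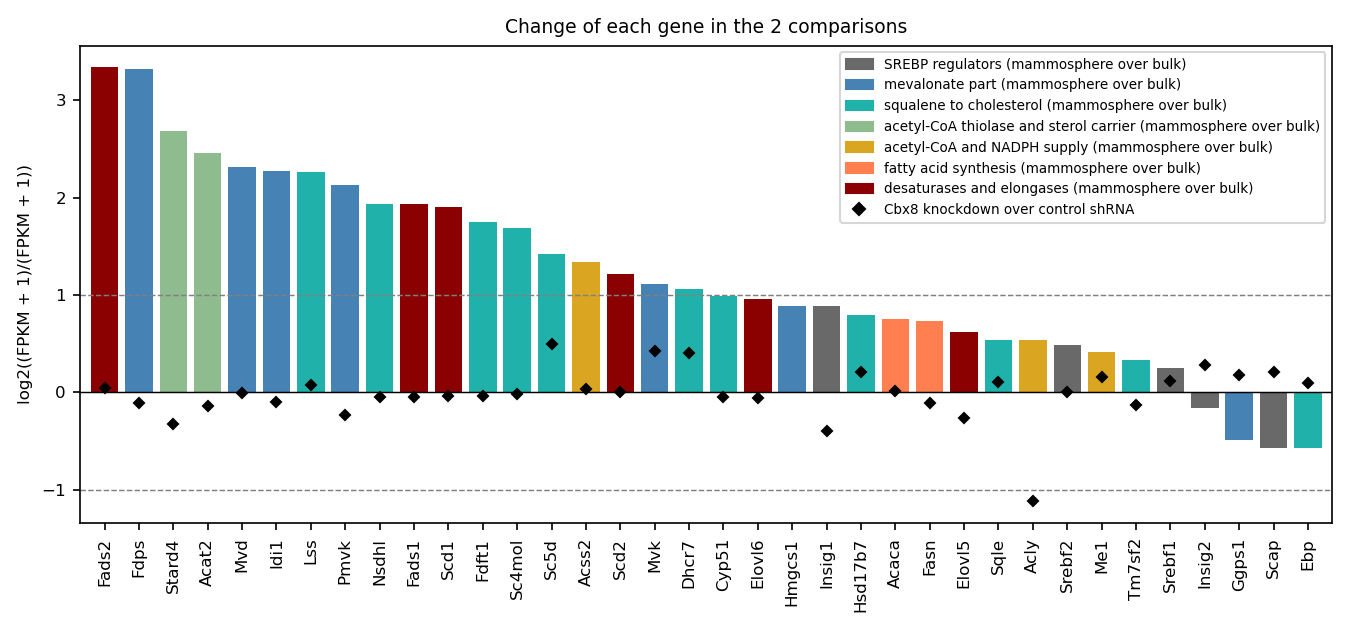
Log2 difference of each gene with 1 FPKM added: bars show the mammosphere over the bulk library, coloured by role and sorted, and diamonds the Cbx8 knockdown over the control shRNA library; dashed lines mark 2-fold. Bars run from 3.34 (Fads2) to −0.57, with 18 past the upper line, whereas 34 of the 35 diamonds lie between −0.40 and 0.50.

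All 11 fatty acid genes had positive differences (against 34.7% of all rows), 5 of them past 2-fold (45.5%, against 3.54%). Their median was 0.96. The 6 desaturases and elongases had a median difference of 1.56, and the 2 enzymes that make the chain 0.74, although the lowest elongase, Elovl5, lay below both of these. Fads2 (mm9 chr19:10138653-10175993), the delta-6 desaturase that starts the synthesis of long polyunsaturated fatty acids, was at 4.46 FPKM in the bulk library and 54.4 in mammospheres. At 12.2-fold it had the largest ratio of the 36 genes (log2 difference 3.34, q = 9.15e-06 in the authors' deposited table). Fads1, the delta-5 desaturase of the same path, was at 12.5 and 50.5 FPKM. The pair went from 0.357 Fads2 per Fads1 in bulk to 1.08 in mammospheres.

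The stearoyl-CoA desaturases Scd1 and Scd2 make monounsaturated fatty acids. Scd1 was at 21.0 and 81.2 FPKM, 3.87-fold higher, with q = 0.00691 in the authors' deposited table. Scd2, in a row shared with the microRNA Mir5114, had the highest level of the 36 genes in both libraries, at 124 and 291 FPKM, 2.34-fold higher, with q = 0.264 there. These are close paralogues, and how reads that match both were counted was not given in the sources used here. Elovl6, an elongase, was at 18.7 and 37.4 FPKM (0.96, just inside the limit) and Elovl5, which acts on polyunsaturated chains, at 32.1 and 49.9 (0.62).

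Fasn, the synthase that builds palmitate, was at 50.3 FPKM in the bulk library and 84.1 in mammospheres (0.73), and Acaca, the carboxylase that makes its malonyl-CoA, at 12.6 and 21.9 (0.75). Among the enzymes that supply precursors, Acly, which splits citrate into cytosolic acetyl-CoA, was at 68.5 and 100.3 FPKM (0.54). Me1, a source of NADPH, was at 14.4 and 19.5 FPKM. Acss2, which makes acetyl-CoA from acetate, was at 3.93 and 11.4 FPKM, past 2-fold in a row the authors did not test. The other 4 of these enzymes all had q above 0.05 in the authors' deposited table.

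The desaturases lie in 2 clusters on mouse chromosome 19, and their neighbours did not all share the difference. Fads3, a relative next to Fads2, was lower in mammospheres, at 28.1 and 14.4 FPKM, and Rab3il1 beyond it was at 1.96 and 0.0602. On the far side of Fads1, the flap endonuclease Fen1 was at 12.3 and 19.2 FPKM and 1810006K21Rik at 136 and 135. In the other cluster the paralogues Scd3 (2.20 and 6.78 FPKM) and Scd4 (1.02 and 2.42) had the same sign as Scd1 and Scd2. Both were low and untested, and reads of the abundant Scd1 and Scd2 could add to them. These neighbours were looked up for their position, after the values of the desaturases were known.

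**Figure D3:**
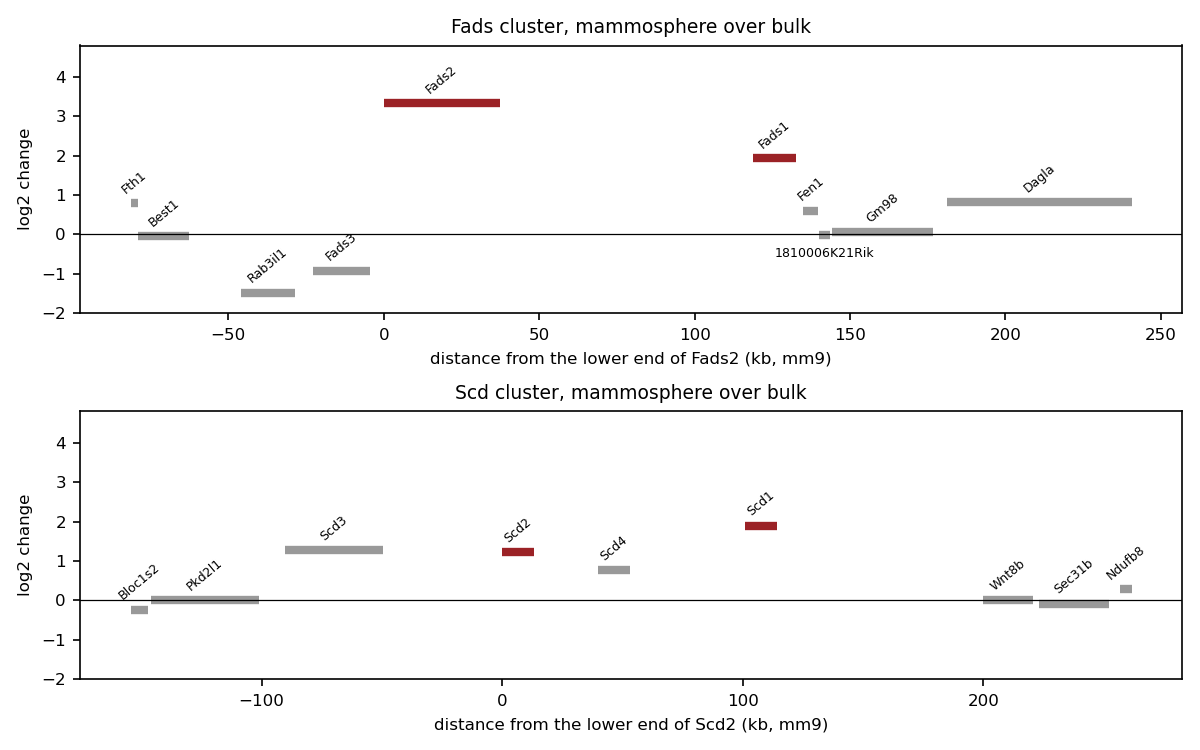
Log2 difference (mammosphere over bulk, 1 FPKM added) of each annotated gene within 150000 bases of the Fads and Scd pairs, against distance in kb; bars span each gene, and red marks Fads1, Fads2, Scd1 and Scd2. Fads2 (3.34) lies next to Fads3 (−0.92), whereas all 4 Scd genes are above 0, between 0.76 and 1.90.

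Other parts of lipid metabolism were counted for comparison, from lists set by function. Citrate and NADPH supply had 7 of 7 measured genes positive, against 34.7% of all rows, and 3 past 2-fold (42.9%, against 3.54%). These were the dehydrogenase Idh1 (48.6 and 134 FPKM, q = 0.0333 in the authors' deposited table), the citrate carrier Slc25a1 (24.2 and 63.6) and G6pdx of the pentose phosphate path (29.3 and 65.9). Of 15 genes of elongation and fatty acid activation, 1 was 2-fold higher (Scd3, 6.67% against 3.54% of all rows) and 0 lower (against 17.3%). Fads3 and the acyl-CoA synthetase Acsl5 (58.8 and 34.2 FPKM) were lower by less. Of 11 genes that use isoprenoids for prenylation, dolichol or ubiquinone, 0 passed 2-fold either way, against 3.54% of all rows higher and 17.3% lower. Their median was −0.38, against −0.24 over all rows (−0.07 against 0.04 with equal upper quartiles). The farnesyltransferase subunit Fntb was at 13.6 and 9.20 FPKM, Coq2 at 19.5 and 13.4, and the other transferase subunit Fnta at 28.8 and 21.1.

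Of 17 sterol sensing and efflux genes, 2 were at least 2-fold higher (11.8%, against 3.54% of all rows) and 2 lower (11.8%, against 17.3%). The lipoprotein receptor Vldlr was at 2.56 FPKM in the bulk library and 13.5 in mammospheres, and Lbr, the other gene past 2-fold, which shares the sterol reductase step with Tm7sf2, at 15.0 and 32.9. The cholesterol exporter Abca1 was at 7.22 and 0.237 FPKM and Mylip, a ligase that degrades lipoprotein receptors, at 17.2 and 6.74, both known targets of the oxysterol receptors LXR. Abca1, Mylip and Vldlr were not tested by the authors. Of 12 glycerolipid synthesis genes, 2 were 2-fold higher (16.7%, against 3.54% of all rows) and 1 lower (8.33%, against 17.3%). The higher ones were Pcyt2 of phosphatidylethanolamine synthesis (11.1 and 44.4 FPKM) and the phosphatidate phosphatase Lpin1 (3.21 and 12.3). The lower one was the choline kinase Chka (133 and 13.3).

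Genes of fatty acid use, a list that also holds lipid droplet and lipolysis genes, had mostly negative differences (19 of 22). Positive ones made up 13.6%, against 34.7% of all rows. Of 22 measured, 0 were 2-fold higher (against 3.54% of all rows) and 8 lower (36.4%, against 17.3%). Their median was −0.66, against −0.24 over all rows. Centring left 7 lower and equal upper quartiles 6. Cpt1a, which admits fatty acids to mitochondria, was at 45.0 FPKM in the bulk library and 3.96 in mammospheres (q = 6.56e-08 in the authors' deposited table). The fatty acid translocase Cd36 was at 2.48 FPKM and listed at 0 in mammospheres, and Cpt1b was at 25.1 and 8.04, both untested. Cpt2, the partner of Cpt1a in the inner membrane, was at 8.30 and 9.91 FPKM, so that not all of the list differed in 1 direction. Whether this list differs from the synthesis genes was not tested.

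**Figure D4:**
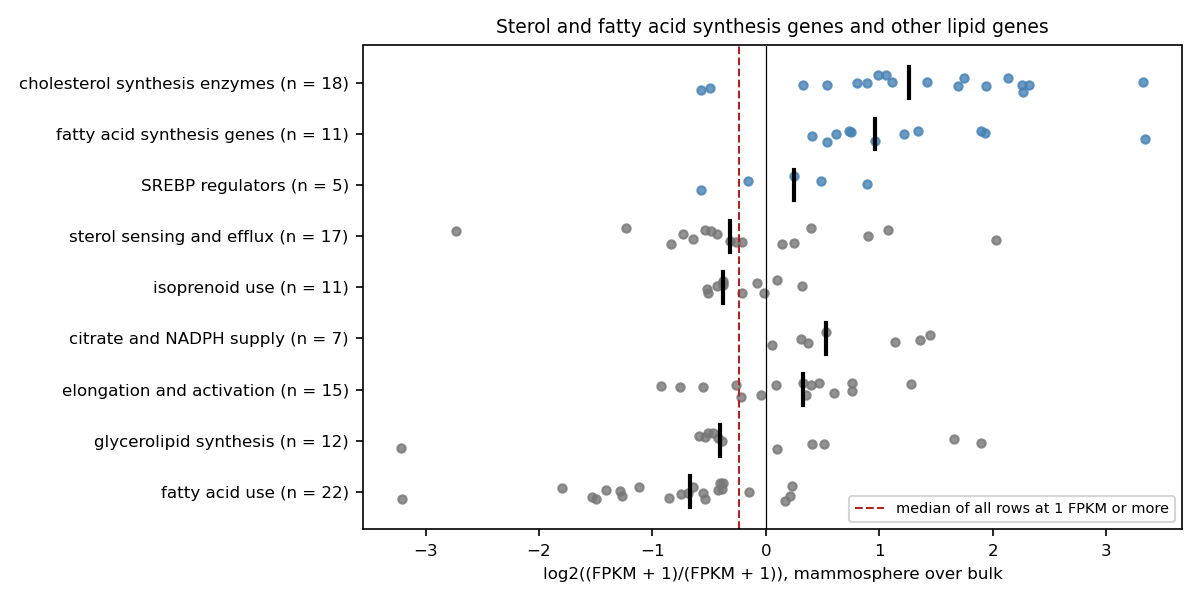
Log2 difference (mammosphere over bulk, 1 FPKM added) of every gene at 1 FPKM or more in each list; points are genes, black bars list medians, and the dashed line the median of all rows (−0.24). The medians of cholesterol enzymes (1.27) and fatty acid synthesis genes (0.96) lie right of the line, and that of fatty acid use genes (−0.66) left of it.

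Markers of leukocytes, fibroblasts and mammary epithelium differed in the same comparison. Of 13 measured leukocyte markers 13 were at least 2-fold lower in mammospheres, against 17.3% of all rows, and together they summed to 507 FPKM in bulk and 8.17 in mammospheres, with Tyrobp, Fcer1g, Cd3e, Ctss, C1qa and C1qb listed at 0. Of 10 measured fibroblast markers 8 were lower (80.0%, against the same 17.3%), and the 11 listed summed to 389 and 6.15 FPKM, with Lum and Thy1 at 0. Of the 8 adipocyte markers, Adipoq, Plin1 and Lep were listed at 0 in both libraries. Cfd (0.0169 FPKM in bulk) and Cidec (0.00981) were listed at 0 in mammospheres only. The 3 measured ones were within 2-fold: Fabp4 at 7.84 and 4.66 FPKM, Pparg at 2.97 and 1.95, and Lipe at 7.04 and 8.06. Of 6 measured epithelial markers 4 were at least 2-fold lower (66.7%, against 17.3% of all rows). The 7 listed summed to 936 FPKM in bulk and 73.1 in mammospheres. Krt8 was at 334 and 5.14 FPKM and Krt18 at 570.4 and 58.2. Krt14 was at 18.8 and 0.0534 FPKM, whereas Krt19 was at 9.08 and 9.65. Epcam (1.06 and 0.0908) and Cdh1 (1.04 and 0.0135) were low in bulk and near 0 in mammospheres. In bulk RNA fewer cells of a type and less RNA per cell cannot be told apart, and the part of these markers in the lipid gene differences was not tested. Myc itself was at 815 FPKM in the bulk library and 361 in mammospheres, and Cbx8 at 3.46 and 1.48.

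Most rows were close between the Cbx8 knockdown and control libraries, and so were nearly all of the sterol and fatty acid genes. Acly was the exception among these genes. The targeted gene Cbx8 was at 4.74 FPKM in the control shRNA and 1.23 in the knockdown (q = 0.385 in the authors' deposited table), 1 hairpin against 1 control. Of 35 genes measured, 0 were at least 2-fold higher, against 0.299% of all 10685 rows at 1 FPKM or more, and 1 was 2-fold lower, against 0.449%. The median difference was −0.01 on the log2 scale, as over all rows (−0.01), and as plain ratios 28 of 35 lay within 1.2-fold and 34 within 1.5-fold, against 71.9% and 92.9% of all rows. Of these genes 0 were higher and 1 was lower with q under 0.05 in the authors' deposited table, against 0.140% and 0.0842% of rows, and at a 1.5-fold limit again 0 and 1, against 2.10% and 2.18%. Acly is thus the 1 gene behind each count of lower genes. Myc was at 511 and 301 FPKM (q = 0.490 in the authors' deposited table). Leukocyte markers (2 of 13 with a row) summed to 27.3 FPKM with the control hairpin and 41.1 with knockdown. Nearly all of that was Cd14 (27.1 and 41.0), whereas Itgam was at 0.278 and 0.123. Fibroblast markers (5 of 11) summed to 10.3 and 4.76 FPKM, and adipocyte markers (3 of 8) to 21.9 and 18.6. Epithelial markers (6 of 7) summed to 416 and 418 FPKM. Among them Krt14 was at 1.09 and 10.5 FPKM, 9.61-fold higher with knockdown (q = 0.0325 in the authors' deposited table). The part of all these markers in the Acly difference was not tested.

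Acly (mm9 chr11:100337665-100389314) was at 166 FPKM with the control hairpin and 76.0 with knockdown, 2.19-fold lower (log2 difference −1.12, q = 0.0488 in the authors' deposited table). The genes that act beside it were close between these libraries. Fasn was at 96.6 and 89.6 FPKM and Acaca at 5.98 and 6.01. The alternative source of acetyl-CoA, Acss2, was at 26.8 and 27.3 FPKM, and the citrate carrier Slc25a1 at 90.4 and 79.5. In the citrate and NADPH supply list the largest difference was in Idh1, at 117 and 90.4 FPKM. Among the genes named here only Acly passed 2-fold, and whether the difference is confined to it was not tested.

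Among the genes of the group, the next largest knockdown differences were within 1.5-fold, with q = 0.999 for each in the authors' deposited table. Sc5d was at 47.9 FPKM with the control hairpin and 68.1 with knockdown, Mvk at 18.6 and 25.4, and Dhcr7 at 105 and 139. Insig1 was at 89.1 and 67.4 FPKM, whereas Insig2 was at 22.4 and 27.4, so the ratio of Insig1 to Insig2 was 3.97 in the control and 2.46 in the knockdown. Stard4 was at 55.9 and 44.5 FPKM, Elovl5 at 92.0 and 76.9 and Pmvk at 52.7 and 44.8. The factors Srebf1 (73.8 and 80.0 FPKM) and Srebf2 (118 in both) and the escort Scap (27.0 and 31.3) differed little.

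The genes with large differences in mammospheres were near their control here, as were most rows (92.9% within 1.5-fold). Fdps was at 72.2 FPKM with the control hairpin and 66.9 with knockdown, Fads2 at 124 and 129, Acat2 at 51.6 and 46.6, Lss at 51.6 and 54.8, and Idi1 at 12.3 and 11.4. Scd2 was again the highest of the group at 594 and 593 FPKM, with Scd1 at 166 and 162. Of the 18 genes at least 2-fold higher in mammospheres, 6 had positive and 12 negative knockdown differences, between −0.32 and 0.50. Their median was near 0 (−0.03, against −0.01 over all rows, of which 48.8% were positive). The 2 tables share no library. In the other lipid lists 0 genes passed 2-fold in the knockdown comparison, against 0.299% of all rows higher and 0.449% lower. The largest were Fads3 (55.6 and 80.2 FPKM), Lpin2 (9.73 and 13.2) and the lipoprotein receptor Scarb1 (169 and 128).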

How the data were processed

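Polyadenylated RNA was read as 100 nt single-end reads, 1 library per group (RIN of at least 8), per the labels' protocols. TopHat 1.4.0, Cufflinks 1.3.0, Cuffdiff (listed as 0.0.7) and FastQC 0.10.0 are named, with build mm9, per the submitters' processing notes; settings were not given in the sources used here. Deposited by the authors were 2 Cuffdiff tables of FPKM per gene with a q-value per row (4045 of 22440 rows tested, status OK, in the first; all 11708 in the second). Depth is unknown: no counts were used, and among low rows no ratio of the libraries recurred in more than 0.342%, so values do not step in whole reads.

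A gene's row was that naming its symbol, with the highest mean FPKM if several. From it, log2((FPKM + 1)/(FPKM + 1)) was computed within a table. Lists counted rows at 1 FPKM or more in either library whatever their status, without the 29 failed and 3 overfull rows. Every gene of the group is named; from each other lipid list, up to 3 with the largest differences, plus Cpt2, Lbr, Slc25a1 and the neighbours of the desaturases, picked after their values were seen. Markers are named where listed at 0, with all adipocyte markers, all epithelial ones but Krt5, and Cd14 and Itgam in the knockdown pair. The group and lists were chosen with earlier results of these data known. One marker is not reported here. Counting was tested on simulated data. Alternatives were pseudocounts of 0.1 and 5, FPKM minimums, 2 scalings, tested rows only, summed rows, a 1.5-fold limit and the authors' calls. Python 3.11.15 with pandas 2.3.3 was used.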

Additional observations from a re-analysis of the deposited data

How the results depend on the processing

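Over all alternatives run, between 13 (the authors' q under 0.05) and 26 (1.5-fold limit) of the 36 genes were higher in mammospheres, 0 were lower, and Acly was the 1 gene lower in the knockdown library, with 0 higher. The mammosphere median ranged from 0.85 (5 FPKM added) to 1.34 (upper quartiles set equal), the latter by construction, since that scaling raises every mammosphere level. Of the 18 genes past 2-fold, 15 stayed past it under every pseudocount, minimum and scaling that could be run for them. With 5 FPKM added, Mvk (0.68), Dhcr7 (0.98) and Acss2 (0.88) were under the limit. No paired analysis was possible because each group was 1 library without a replicate number. For the same reason no library could be left out, and unknown depth allows no counting interval.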

Other observations

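Levels from the 2 tables were set side by side for the 35 genes found in both, although the tables were normalized separately and the labels do not say how the hairpin cells were grown. The bulk library had the lowest level of the 4 for 29 of the 35 genes, against 32.0% of the 9760 rows at 1 FPKM or more in all 4 libraries. Both hairpin libraries lay above both others for 27 of 35, against 62.1% of those rows. The control shRNA library was above the bulk library by a median log2 of 1.68 for these genes and 0.39 for those rows, and above the mammosphere library by 0.73 and 0.57. Fads2, for example, was at 4.46 FPKM in bulk, 54.4 in mammospheres, 124 in the control shRNA and 129 in the knockdown library, and Sc4mol at 19.1, 64.0, 143 and 140.5. Idi1 (66.8 FPKM in mammospheres, 12.3 in the control shRNA library), Fdps (111 and 72.2), Fdft1 (46.7 and 35.8) and Acaca (21.9 and 5.98) had the opposite order. These were picked after their values were seen.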
